A study of Mus musculus with 127 samples.

Results

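The CHD family of chromatin remodellers was described in the cortex of Chd8 mutant mice, with Chd8 as the point of reference and its 9 paralogues, Chd1, Chd1l, Chd2, Chd3, Chd4, Chd5, Chd6, Chd7 and Chd9, as the subject. The members were taken by name: 10 of the 54838 gene rows shared by the count tables, found through their Ensembl identifiers. All 10 were detected in all 123 libraries analysed, and all 10 passed the filter on low counts in every comparison. The question addressed was whether any paralogue was higher where Chd8 was lower.

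CHD proteins carry a pair of chromodomains, which bind histone tails, and an SNF2-type ATPase, which moves or removes nucleosomes. Chd1 and Chd2 act at transcribed genes. Chd3, Chd4 and Chd5 are the alternative ATPases of the NuRD complex, which joins nucleosome remodelling to histone deacetylation, and Chd5 is expressed chiefly in neurons. Chd6, Chd7, Chd8 and Chd9 form the subfamily closest to Chd8, and Chd1l (ALC1) is a relative that lacks chromodomains and is activated by poly(ADP-ribose) at sites of DNA damage. Loss-of-function mutations of CHD8 in people are associated with autism, those of CHD7 with CHARGE syndrome and those of CHD2 with epilepsy.

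The samples were poly(A) RNA-seq libraries of adult cortex at P60. In the germline line every cell carried the Chd8 5bpdel allele, and heterozygotes (HET) were set against wild-type mice (WT) in whole cortex (16 HET and 15 WT libraries) and in nuclear (9 and 12), synaptic (7 and 11) and cytosolic (7 and 5) fractions of cortex. In the conditional line a floxed Chd8 allele was removed by Cre under the Camk2a promoter, which drives expression in excitatory forebrain neurons, so that other cells keep Chd8. By the sample titles, its whole cortex came from Chd8+/flox mice with Cre (Cre+, 6 libraries) and without Cre (Cre−, 8 libraries), so Cre and deletion cannot be told apart there. The protocol text names that pair as WT and Chd8+/flox instead. Its nuclear fraction held 3 homozygous Chd8flox/flox (HOM), 6 Chd8+/flox (HET) and 4 WT libraries and its synaptic fraction 5 HOM, 5 HET and 4 WT, all labelled as carrying Camk2a-Cre. In bulk RNA, fewer cells that express a gene and less RNA per cell cannot be told apart.

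Total gene counts ranged from 19001521 to 56579360 per library, except in conditional cortex, where they ranged from 98112666 to 134594327. A few libraries stood apart from their labels. Of the 11 germline WT synaptic libraries, 2 (male replicates 1 and 2) had a nuclear profile, with 31600 and 33130 CPM (gene counts scaled to the per-million total of their library) of 8 nuclear-retained RNAs such as Malat1 and Meg3, against a group median of 1908 CPM. The name rests on these RNAs alone, and other values differed from nuclear libraries. The 7 endothelial and mural markers summed to at most 498.9 CPM in WT synaptic libraries, against 766.9 to 2129 CPM in WT nuclear libraries. Chd5, at 483.3 and 481.1 CPM in the 2 libraries, lay above its WT nuclear range of 187.1 to 317.6 CPM. In 2 germline nuclear libraries (HET female replicate 4 and WT male replicate 7) the sex markers went against the label. The HET library had 0.428 CPM of the female marker Xist and 0.0 CPM of the male marker Ddx3y, so it showed neither sex. The WT library had 547.1 CPM of Xist and 0.0 CPM of Ddx3y. Conditional HET male replicate 1 had no Cre reads in either fraction, and the labels of 1 conditional animal gave it as HET for the nuclear library but as HOM for the synaptic one. All 6 excitatory neuron markers were detected in cortex, with a summed level of 5124 to 7030 CPM in germline and 3395 to 8254 CPM in conditional libraries.

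Chd8, the targeted gene (ENSMUSG00000053754, chromosome 14, 52198151 to 52257780, minus strand, GRCm38), fell in germline HET cortex, had estimates below 0 in all other genotype comparisons, and lay close to WT in the germline nuclear fraction. In germline cortex it measured 41.73 to 81.33 CPM in HET libraries (median 61.74) and 65.95 to 111.8 CPM in WT libraries (median 99.79), so that the groups overlapped. The fitted HET level was 67% of WT (log2 fold change −0.58, SE 0.0751, adjusted p = 6.18e-05 in edgeR). In the nuclear fraction the same comparison gave −0.01 (SE 0.0606), with 94.28 to 147.3 CPM in HET and 91.98 to 130.8 CPM in WT libraries. Gm26590, an antisense gene, covers 5.8% of the Chd8 exon bases, and the sources used here do not give the strand setting of these counts, so that reads of the pair may not be separated.

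Levels of different members were compared per exon length, as CPM divided by the exon length in kilobases (RPKM). The NuRD ATPases made up most of the family RNA in cortex. Chd3 averaged 85.8 ± 10.5 RPKM in HET and 89.8 ± 11.2 RPKM in WT cortex (SD, n = 16 and 15). Chd5 averaged 37.6 ± 2.49 RPKM in HET and 40.1 ± 3.79 RPKM in WT, and Chd4 27.9 ± 1.92 RPKM in HET and 29.1 ± 2.33 RPKM in WT. Chd3, Chd5 and Chd4 followed each other in this order in all 31 germline cortex libraries, with no overlap between neighbours. In conditional cortex Chd5 was above Chd4 in 4 of 6 Cre+ and 8 of 8 Cre− libraries, with overlapping ranges. Together they accounted for a median of 86.45% of the family RPKM in HET and 85.96% in WT cortex.

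The remaining 7 members averaged between 1.21 RPKM (Chd7 in HET) and 5.64 RPKM (Chd8 in WT). In WT cortex Chd8 was the 4th most abundant member at 5.64 ± 0.835 RPKM (SD, n = 15), above Chd6 (5.1 RPKM), Chd2 (4.1), Chd1 (3.56), Chd9 (3.23), Chd1l (2.21) and Chd7 (1.24). In HET cortex Chd8 averaged 3.75 ± 0.723 RPKM (SD, n = 16) and came 6th, below Chd6 (4.86 RPKM) and Chd2 (3.82) and above Chd1 (3.49). Chd8 was below Chd2 in 10 of the 16 HET libraries, and above Chd6 in all 15 WT libraries. The ranges of neighbouring members in this lower tier overlapped in both genotypes, apart from Chd1l over Chd7 in WT.

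**Figure D1:**
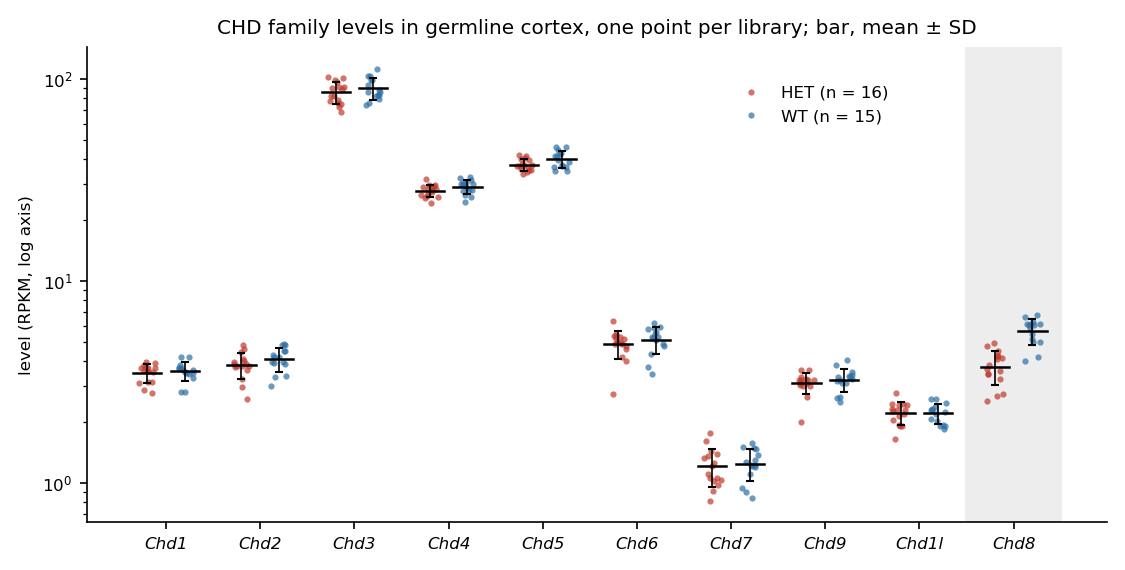
Level of each CHD member in germline cortex (RPKM, log axis), one point per library, HET left of WT, with the mean and SD as bars. Chd3, Chd5 and Chd4 lie at 24.25 RPKM or more in all libraries, and Chd8 averages 3.75 RPKM in HET against 5.64 RPKM in WT, with overlapping ranges.

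The levels shifted with the compartment. In the germline nuclear fraction Chd4 exceeded Chd5 (34.8 and 28.1 RPKM in HET, 33.9 and 26.0 RPKM in WT), while in the synaptic fraction Chd5 exceeded Chd4 (27.4 and 18.8 RPKM in HET, 32.2 and 20.8 RPKM in WT). Chd8 was the 4th most abundant member in WT synaptic libraries (4.23 RPKM on average, n = 11) and the 8th in HET synaptic libraries (2.03 RPKM, n = 7), where only Chd1l and Chd7 were lower on average. The WT average includes the 2 libraries with a nuclear profile, which held the highest Chd8 levels of that group (147.7 and 143.8 CPM, against 36.19 to 65.31 CPM in the other 9).

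No paralogue passed the test in HET cortex of the germline line. In this comparison edgeR called 56 of 17074 genes, or 0.328%, and 0 of the 9 paralogues, with 0 of 9 at an unadjusted p under 0.05. DESeq2 called 97 genes (0.568%) and 0 of 9 paralogues, with 1 of 9 at an unadjusted p under 0.05. The estimates ran from −0.09 (Chd2, SE 0.0595) to 0.01 (Chd1l, SE 0.0606), 8 of 9 were below 0, and their median was −0.06, against −0.001 over all genes tested. Under DESeq2 and under scaling by total counts all 9 were below 0. The upper bounds of the 95% intervals reached at most 0.15 (Chd7), or 110.8% of WT. An increase of the same log2 size as the Chd8 decrease thus lay outside the interval of each paralogue. This compares fold changes, not amounts of RNA. Chd8 averaged 3.75 RPKM in HET and 5.64 RPKM in WT cortex, and a rise by that difference would be a small part of the 89.8 RPKM of Chd3 in WT.

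Among the closest relatives of Chd8, Chd7, a regulator of neural crest and neural progenitor genes, measured 11.21 to 24.2 CPM in HET (median 15.93) and 11.59 to 21.74 CPM in WT cortex (median 16.83). Its estimate was −0.04 (SE 0.0927, adjusted p = 0.91). Chd6 measured 52.64 to 120.3 CPM in HET (median 94.07) and 65.75 to 117.4 CPM in WT (median 100.5), with an estimate of −0.06 (SE 0.0688, adjusted p = 0.814). Chd9 measured 46.11 to 83.84 CPM in HET (median 73.73) and 57.76 to 93.36 CPM in WT (median 75.17), with an estimate of −0.03 (SE 0.0526, adjusted p = 0.865). HET and WT libraries overlapped over nearly their whole range for each of these 3 genes.

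Of the NuRD ATPases, Chd4 and Chd5 had the lowest SE of the 9 paralogues (0.0388 and 0.0473). Chd4, the ATPase of most NuRD complexes, gave 194.5 to 256.1 CPM in HET (median 226.7) and 196.6 to 260.2 CPM in WT (median 238.6), or 96.13% of WT with an interval of 91.02 to 101.5%. Chd5 gave 322.2 to 400.5 CPM in HET (median 356.2) and 335.7 to 442.5 CPM in WT (median 381.7), or 94.12% of WT (interval 88.04 to 100.6%, adjusted p = 0.587), the smallest unadjusted p of the 9 at 0.0736 in edgeR. Chd3 gave 580.4 to 862.6 CPM in HET (median 724.2) and 628.2 to 948.4 CPM in WT (median 728.4), or 95.51% of WT. The ranges of HET and WT overlapped for all 3.

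Of the transcription-coupled pair, Chd2 gave 37.19 to 68.51 CPM in HET (median 54.61) and 42.84 to 69.2 CPM in WT (median 59.79), with an adjusted p of 0.678. A same-strand gene, 1810026B05Rik, covers 18.4% of the Chd2 exon bases, so Chd2 counts are uncertain to that extent. Chd1 gave 24.21 to 34.57 CPM in HET (median 31.36) and 24.5 to 36.38 CPM in WT (median 31.56). Chd1l gave 7.099 to 11.92 CPM in HET (median 9.83) and 7.982 to 11.24 CPM in WT (median 9.616). Neither showed a shift between genotypes beyond the spread of the libraries.

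The cortex libraries came in 2 batches by their labels. Chd8 gave −0.60 (SE 0.0771, adjusted p = 0.00292) in batch CHD807 and −0.57 (SE 0.136, adjusted p = 0.999) in batch CHD80456. The paralogues had a median of −0.03 in the first batch and −0.11 in the second, with 0 of 9 at an unadjusted p under 0.05 in edgeR in either. The genotype difference was also compared between males and females. Here edgeR, the tool run, called 0 of 9 paralogues and 0 of 17074 genes (0.0%), with 0 of 9 and 261 at an unadjusted p under 0.05. The largest difference, male minus female, was 0.28 (Chd7, SE 0.182), and Chd8 gave 0.05 (SE 0.153).

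The summed RPKM of the 9 paralogues was no higher in HET than in WT cortex. It ranged from 151.8 to 185.6 RPKM in HET (median 167.2, SD 10.4) and from 156.3 to 205.8 RPKM in WT (median 175.6, SD 13.6). Chd8 itself averaged 3.75 RPKM in HET and 5.64 RPKM in WT. That difference is well below the SD of the sum, so the sum cannot show whether so small an amount was replaced. Chd8 made up 2.21% of the family RPKM in HET and 3.15% in WT (medians), with ranges of 1.42 to 2.9% and 2.25 to 3.76%. The subfamily of Chd6, Chd7 and Chd9 summed to a median of 9.41 RPKM in HET and 9.89 RPKM in WT, so its sum was also no higher in HET.

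**Figure D2:**
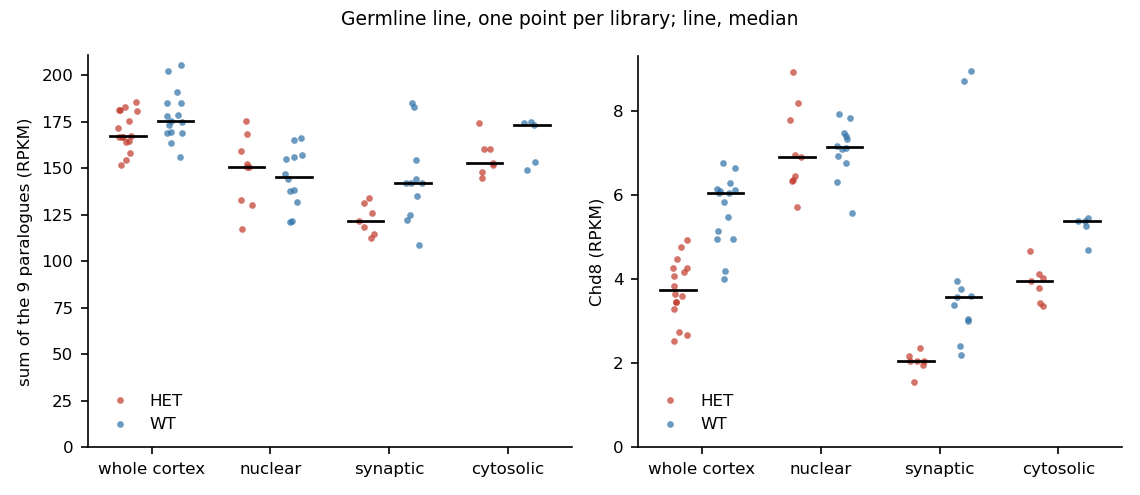
Summed level of the 9 paralogues (RPKM, left) and level of Chd8 (RPKM, right) in the germline line. Whole cortex and the nuclear, synaptic and cytosolic fractions are shown, one point per library, HET left of WT, with the median as a line. The paralogue sums overlap between genotypes in each fraction. The median share of Chd8 in the family RPKM, which is not drawn, was lower in HET than in WT in cortex (2.21 against 3.15%). It was also lower in synaptic (1.63 against 2.43%) and cytosolic libraries (2.41 against 3.0%), and was 4.45 against 4.68% in nuclear libraries.

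In the germline nuclear fraction edgeR called 3 of 19912 genes (0.0151%) and DESeq2 18 (0.0904%). Both called 0 of the 9 paralogues, and 1 of 9 had an unadjusted p under 0.05 by either tool. This was Chd9, of the Chd8 subfamily, which measured 109.3 to 178.6 CPM in HET (median 123.4) and 90.33 to 130.9 CPM in WT nuclei (median 108.4). The highest HET value belonged to male replicate 1, and the groups overlapped. Its estimate was 0.25 (SE 0.0808), with an adjusted p of 0.446 in edgeR. With batch labels in 6 levels rather than 3, the Chd9 estimate was 0.11 (SE 0.0863, adjusted p = 1.0 in edgeR). In whole cortex the Chd9 estimate was −0.03 and in the cytosolic fraction 0.02.

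The other nuclear estimates ran from −0.17 (Chd1l, SE 0.11) to 0.10 (Chd6, SE 0.064). Chd4 (0.03, SE 0.0636), Chd2 (0.01, SE 0.0673) and Chd1 (0.02, SE 0.0765) lay close to 0. Here 7 of 9 estimates were above 0 and the median was 0.03, against 0.01 over all genes.

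In the synaptic fraction Chd8 was at 25.58 to 38.83 CPM in HET (median 33.8) and 36.19 to 147.7 CPM in WT (median 59.21), with an estimate of −0.82 (SE 0.192, adjusted p = 0.316). edgeR called 0 of 17178 genes (0.0%), where 1877 had an unadjusted p under 0.05, and DESeq2 called 17 (0.099%). Without the 2 WT libraries with a nuclear profile, 183 of 16862 genes (1.09%) were called and Chd8 gave −0.67 (SE 0.0741, adjusted p = 6.26e-05). The paralogues were called in neither setting: 0 of 9 in edgeR and 0 in DESeq2, with 0 of 9 at an unadjusted p under 0.05, or 1 of 9 without the 2 libraries.

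That 1 paralogue was Chd3, which measured 450.1 to 630.7 CPM in HET synaptic libraries (median 552.6) and 470.4 to 781.5 CPM in WT (median 632.8). Its estimate was −0.20 (SE 0.111, adjusted p = 0.527) with all libraries, and −0.25 (SE 0.0897, adjusted p = 0.134) without the 2. For Chd2, Chd4, Chd6 and Chd9 the estimate was below 0 with those 2 libraries and above 0 without them. Chd6, for example, gave −0.05 (SE 0.202) with them and 0.11 (SE 0.0598) without them. With batch labels in 6 levels, 7 of 9 estimates were above 0 and the median was 0.14, against −0.06 with 3 levels. The 3 HET male synaptic libraries had batch labels beginning with 0508, which no WT synaptic library had. With 3 levels, 0508 was grouped with 0516, where the WT synaptic libraries were all female. Batch, sex and genotype are therefore not fully separated in this fraction.

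In the cytosolic fraction the groups did not overlap for Chd8. HET libraries gave 55.51 to 77.05 CPM (median 65.14) and WT libraries 86.87, 77.61, 88.92, 88.7 and 90.12 CPM. The estimate was −0.43 (SE 0.0835), with an adjusted p of 1.0 in edgeR and 0.0306 in DESeq2. edgeR called 0 of 18454 genes (0.0%), where 587 had an unadjusted p under 0.05, and DESeq2 called 4 (0.0217%). Neither tool called any of the 9 paralogues, and 0 of 9 had an unadjusted p under 0.05.

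Chd3 again had the lowest estimate of the 9, −0.15 (SE 0.0955). Its HET libraries gave 506.7 to 649.3 CPM (median 553.1) and its WT libraries 663.6, 548.2, 646.9, 691.8 and 570.9 CPM, which overlapped. With the replicate number as a block, a pairing that the data do not bear out (1 of 3 pairs correlated above 0.1), Chd3 gave −0.35 (SE 0.0704, adjusted p = 0.048). The highest cytosolic estimate was that of Chd7, 0.13 (SE 0.119).

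**Figure D3:**
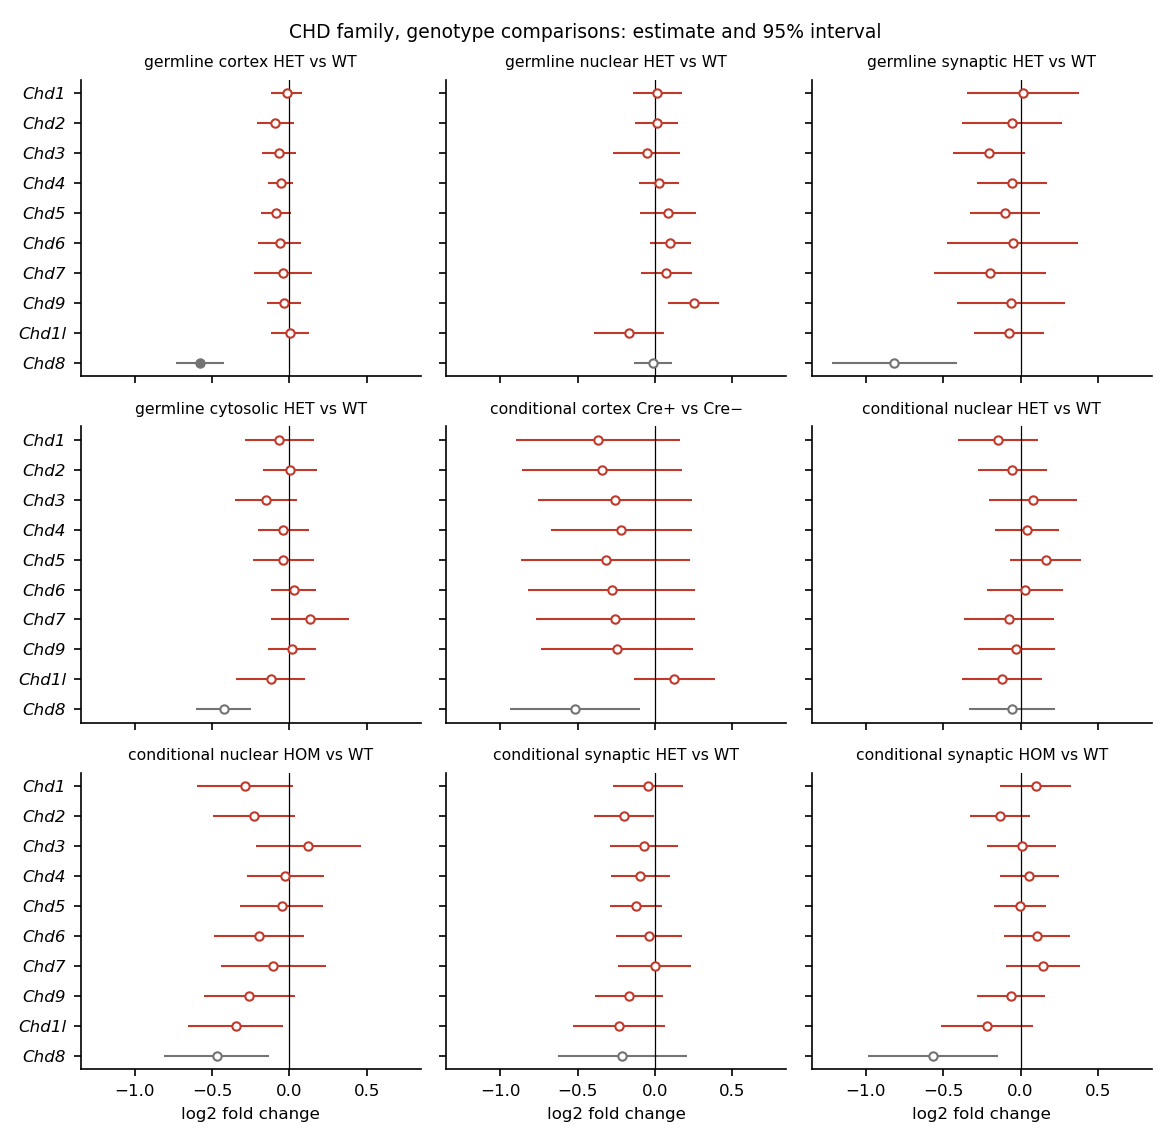
Log2 fold change of each CHD member (horizontal axis, with 95% interval) in each genotype comparison, mutant over WT or Cre+ over Cre−; paralogues in red, Chd8 in grey, filled where the adjusted p was under 0.05. The filled point is Chd8 in germline cortex (−0.58), and no paralogue is filled in any panel.

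In conditional cortex Chd8 measured 37.2 to 66.56 CPM in Cre+ (median 52.7) and 48.13 to 96.86 CPM in Cre− libraries (median 80.94), with an estimate of −0.52 (SE 0.197, adjusted p = 0.886). edgeR called 0 of 21798 genes (0.0%), where 656 had an unadjusted p under 0.05, and DESeq2 called 4 (0.0184%). Of the 9 paralogues both tools called 0, with 0 of 9 at an unadjusted p under 0.05. Chd1l was at 0.12 (SE 0.122) and the other 8 lay between −0.37 (Chd1, SE 0.249) and −0.22 (Chd4, SE 0.214), with a median over the 9 of −0.26 against 0.001 over all genes.

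These 8 paralogues shared a wide spread between libraries of 1 group. Chd4, the member with the smallest SE in germline cortex, ranged from 121.5 to 248.3 CPM in Cre+ (median 176.0) and from 137.4 to 263.2 CPM in Cre− libraries (median 220.9). Chd1 ranged from 9.712 to 21.54 CPM in Cre+ (median 13.77) and from 12 to 29.16 CPM in Cre− (median 17.99). The summed nuclear-retained RNAs ranged from 1258 to 1781 CPM in Cre+ (median 1660) and from 1344 to 4208 CPM in Cre− libraries (median 2158), and striatal markers from 175.2 to 1028 CPM in Cre+ and 387.3 to 717.8 CPM in Cre−. Their part in the paralogue values was not tested. The paralogue sum was 74.7 to 172.0 RPKM in Cre+ (median 121.3) and 96.2 to 190.4 RPKM in Cre− (median 146.9).

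In the conditional nuclear fraction, Chd8 measured 51.48, 77.41 and 95.47 CPM in HOM libraries, 89.59 to 114.7 CPM in HET (median 95.9) and 93.85, 126.4, 101.2 and 107.6 CPM in WT. HOM gave −0.47 (SE 0.161, adjusted p = 0.423) and HET −0.06 (SE 0.133, adjusted p = 0.978). The HOM estimate rested on the female library at 51.48 CPM: without it, Chd8 gave −0.20. Since Cre acts in excitatory neurons, the remaining Chd8 RNA includes that of all other cells, and the gene counts do not separate the floxed exons from the rest.

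Both comparisons use the same 4 WT libraries. edgeR called 0 of 21133 genes (0.0%) in either, and 0 of 9 paralogues. DESeq2 called 27 genes in HOM (0.128%), 3 in HET (0.0142%) and 0 of 9 paralogues in both. An unadjusted p under 0.05 was seen for 1 of 9 in HOM and 0 of 9 in HET. The HOM gene was Chd1l, at 12.65, 11.21 and 10.36 CPM in HOM, 11.48 to 17.24 CPM in HET (median 13.92) and 14.11, 17.73, 15.77 and 14.68 CPM in WT. HOM and WT did not overlap, and the estimate was −0.35 (SE 0.146, adjusted p = 0.426). Chd1 likewise did not overlap between HOM (31.84, 38.16 and 39.17 CPM) and WT (41.55, 50.97, 47.37 and 47.81 CPM), with an estimate of −0.29 (SE 0.146, adjusted p = 0.447). Chd9 did not overlap either, at 98.94, 107.8 and 108.2 CPM in HOM and 114.1, 148.1, 134.6 and 139.0 CPM in WT (−0.26, SE 0.14, adjusted p = 0.466).

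None of these 3 passed the test. The share of all genes whose HOM and WT libraries do not overlap was not computed, so the lack of overlap is not read as a result about these 3 members. The summed nuclear-retained RNAs were at 16960, 19370 and 26080 CPM in HOM, against 20480, 33800, 29420 and 30390 CPM in WT nuclei (libraries in the order used above). The 7 endothelial and mural markers summed to 286.6 to 720.3 CPM in HOM (median 443.7) and 468.1 to 1260 CPM in WT (median 773.8). Their part in the paralogue values was not tested. Over the 9 paralogues 8 estimates were below 0 (median −0.20, against −0.01 over all genes). Chd3 was the exception at 0.12 (SE 0.161). In HET nuclei the estimates ran from −0.15 (Chd1) to 0.16 (Chd5, SE 0.109, adjusted p = 0.938), with a median of −0.03.

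In the conditional synaptic fraction Chd8 measured 28.05, 44.04, 61.28, 47.01 and 28.2 CPM in HOM, 50.28, 38.96, 46.97, 66.93 and 56.44 CPM in HET, and 67.82, 65.47, 51.77 and 58.57 CPM in WT. The estimates were −0.57 for HOM (SE 0.196, adjusted p = 0.936) and −0.21 for HET (SE 0.194, adjusted p = 0.997). HET male replicate 1, with no Cre reads, had the highest Chd8 value of its group, and without that animal HET gave −0.28 (SE 0.207). Its nuclear library had the lowest Chd8 value of the HET nuclei (89.59 CPM, against 93.74 to 114.7 CPM in the other 5), where HET gave −0.03 (SE 0.141) without it. Both comparisons gave 0 of 17505 genes (0.0%) in edgeR, and DESeq2 called 2 genes in HOM (0.0114%) and 0 in HET.

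Of the paralogues, 0 of 9 were called by either tool in HOM or HET, with 0 of 9 in HOM and 1 of 9 in HET at an unadjusted p under 0.05. That gene was Chd2, at 48.84, 36.62, 40.52, 57.14 and 49.04 CPM in HET and 50.96, 53.81, 61.3 and 51.69 CPM in WT, which overlapped (−0.20, SE 0.0944, adjusted p = 0.997). HOM estimates ran from −0.22 (Chd1l, SE 0.143) to 0.15 (Chd7, SE 0.114), with a median of 0.01 against 0.00 over all genes. In the plot of genotype comparisons, the intervals of the paralogues thus cover 0 in all but 3 places, Chd9 in germline nuclei, Chd1l in conditional HOM nuclei and Chd2 in conditional HET synaptic libraries.

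Synaptic and nuclear libraries of the same animals were compared within animal. With TMM scaling, which sets the bulk of genes near 0 (median −0.06 in germline WT, −0.04 in germline HET and −0.06 in conditional WT), Chd3 and Chd5 were relatively synaptic and 4 to 6 other paralogues relatively nuclear. Scaling by total counts shifted the median of all genes to −0.56, −0.65 and −0.59 in these 3 comparisons, so that directions hold relative to the median gene. Of the genes called in germline WT, 5808 were higher and 6622 lower in the synaptic fraction with TMM, and 1830 and 10286 with total counts. The split was 6517 and 7275 against 2553 and 10735 in germline HET, and 5972 and 6568 against 2454 and 10530 in conditional WT. The mitochondrially encoded RNAs took 3.87 to 14.96% of the counts in germline WT synaptic libraries and 1.81 to 5.94% in nuclear libraries.

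In 10 germline WT animals 65.8% of 18879 genes were called (30.8% higher and 35.1% lower in the synaptic fraction), and 7 of 9 paralogues (2 higher and 5 lower). Chd3 measured 470.4 to 781.5 CPM in the 11 synaptic libraries (median 632.8) and 367.4 to 646.1 CPM in the 12 nuclear libraries (median 518.8). Its ratio within a pair had a median of 1.37 and was below 1 in 1 of 10. That pair, at 0.84, was the 1 with unlike sex markers, and Chd5 was below 1 in the same pair alone (0.715). For Chd3, the fits gave these values. Chd3 gave 0.88 (SE 0.122, adjusted p = 8.73e-05) with TMM and 0.38 (SE 0.111, adjusted p = 0.00979) with total counts. Chd5 measured 222.8 to 483.3 CPM in synaptic (median 289.1) and 187.1 to 317.6 CPM in nuclear libraries (median 240.3). Its 2 highest synaptic values, 483.3 and 481.1 CPM, came from the libraries with a nuclear profile, and both lay above the nuclear range. Chd5 gave 0.86 (SE 0.143, adjusted p = 0.000261) with TMM and 0.36 (SE 0.162, adjusted p = 0.0705) with total counts.

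The paralogues closest to Chd8 lay on the nuclear side. Chd9 gave −0.53 (SE 0.172, adjusted p = 0.0169), Chd7 −0.48 (SE 0.163, adjusted p = 0.0209) and Chd6 −0.46 (SE 0.187, adjusted p = 0.0442). Chd1 (−0.38, SE 0.15) and Chd4 (−0.26, SE 0.102) also passed. Chd2 (−0.29, SE 0.148), Chd1l (−0.20, SE 0.14) and Chd8 itself (−0.35, SE 0.165, adjusted p = 0.0792) did not. Without the 2 WT libraries with a nuclear profile, 75% of genes and 8 of 9 paralogues were called, with Chd9 at −0.76, Chd6 at −0.74, Chd7 at −0.71, Chd8 at −0.60 and Chd5 at 0.67. Without the libraries whose sex markers went against the label, 62.9% of genes and 4 of 9 paralogues were called: Chd3, Chd5, Chd7 and Chd9. Leaving out 1 animal at a time gave 3 to 8 called paralogues of 9.

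The 5 germline HET animals gave the same sides with TMM. Here 72.9% of 18914 genes were called (34.5% higher and 38.5% lower), and 8 of 9 paralogues (2 higher and 6 lower). Chd3 was at 0.72 (SE 0.143, adjusted p = 0.000849) and Chd5 at 0.51 (SE 0.123, adjusted p = 0.00287), but with total counts Chd3 gave 0.11 (adjusted p = 0.522) and Chd5 turned to −0.10 (adjusted p = 0.512). Within the 5 animals Chd5 measured 276.7, 253.7, 296.8, 257.9 and 227.4 CPM in synaptic and 309.3, 312.4, 322.7, 299.2 and 180.8 CPM in nuclear libraries, so that 4 of 5 had less CPM in the synaptic library. Chd9 (−0.82), Chd7 (−0.77), Chd6 (−0.65), Chd2 (−0.48), Chd1 (−0.42) and Chd4 (−0.38) were lower under either scaling.

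Chd8 was the most nuclear member in these animals, at −1.28 (SE 0.102, adjusted p = 1.4e-06). The synaptic libraries of the 5 HET animals held 32.4, 34.06, 35.98, 38.83 and 25.58 CPM of Chd8, against 135.0, 128.3, 147.3, 114.0 and 94.28 CPM in their nuclear libraries. All 5 pairs were therefore far apart, with no overlap.

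In the 4 conditional WT animals, 67% of 18715 genes were called (31.9% higher and 35.1% lower), and 6 of 9 paralogues (2 higher and 4 lower). Chd5 measured 292.2, 267.1, 286.4 and 269.3 CPM in the synaptic and 235.5, 229.4, 233.4 and 274.6 CPM in the nuclear libraries of the same animals, and 3 of the 4 had more in the synaptic one. Its estimate was 0.73 (SE 0.0912, adjusted p = 2.44e-06) with TMM and 0.20 (SE 0.083, adjusted p = 0.0472) with total counts. Chd3, at 479.6, 593.9, 520.2 and 449.3 CPM in synaptic and 448.1, 530.5, 524.3 and 443.4 CPM in nuclear libraries, gave 0.60 (adjusted p = 2.17e-05) with TMM and 0.07 (adjusted p = 0.472) with total counts. Chd7 (−0.61), Chd9 (−0.60), Chd6 (−0.48) and Chd1 (−0.47) were lower and Chd8 gave −0.28 (SE 0.0926, adjusted p = 0.0129).

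**Figure D4:**
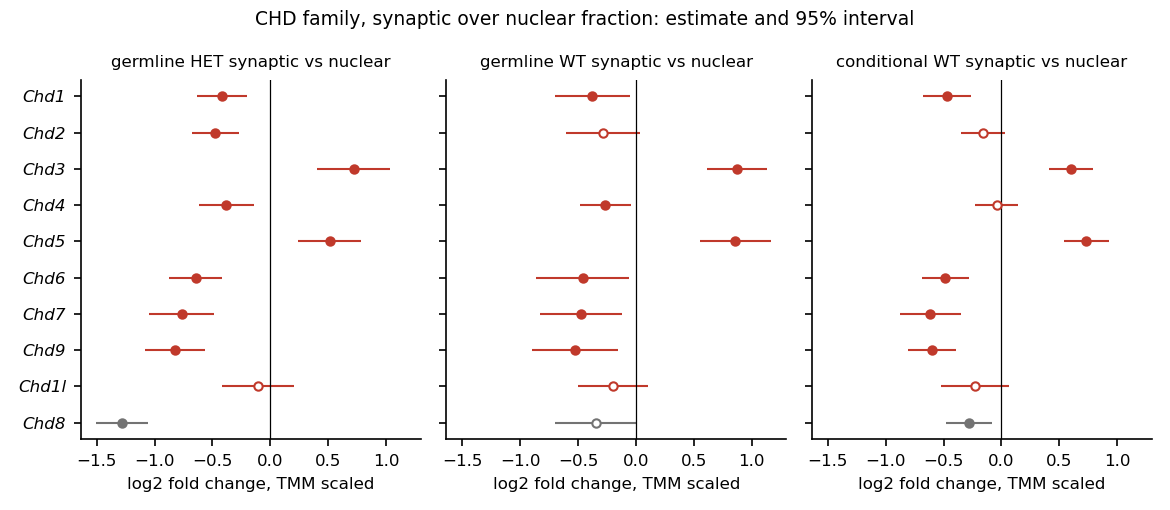
Log2 fold change of each CHD member, synaptic over nuclear fraction paired by animal number (horizontal axis, TMM scaling, 95% interval). From left to right the panels are germline HET, germline WT and conditional WT. Paralogues are in red and Chd8 in grey, filled where the adjusted p was under 0.05. In panel order, Chd3 (0.72, 0.88 and 0.60) and Chd5 (0.51, 0.86 and 0.73) lie right of 0 and Chd6, Chd7 and Chd9 left of it in all 3 panels. With scaling by total counts Chd5 falls to −0.10 in germline HET and the others keep their side.

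Whether the distribution of a paralogue depended on genotype was tested as an interaction. In the germline line 0 of 21515 genes (0.0%) and 0 of 9 paralogues were called, with 0 of 9 at an unadjusted p under 0.05 in edgeR, which was the tool run. Chd8 gave −0.95 (SE 0.245, adjusted p = 0.59), and −0.71 (SE 0.135, adjusted p = 0.776) without the 2 libraries with a nuclear profile. Among the paralogues the estimates ran from −0.36 (Chd5, SE 0.217) to 0.08 (Chd1l, SE 0.222), and without the 2 libraries from −0.19 (Chd5) to 0.18 (Chd1l). In the conditional line 0 of 21577 genes (0.0%) were called for HOM or HET. 1 of 9 paralogues had an unadjusted p under 0.05 in HOM and 0 of 9 in HET. This was Chd1, at 0.44 (SE 0.165, adjusted p = 0.896).

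Other remodellers and partners were followed in 6 lists of 88 genes. In all 9 genotype comparisons 0 of the listed genes were called by edgeR and 0 by DESeq2. In edgeR 10 of the 87 tested had an unadjusted p under 0.05 in germline cortex, where 1561 of all 17074 genes did, and 8 of 88 in conditional HOM nuclei, where 2453 of all 21133 genes did. The count was 0 to 5 in the other 7 comparisons, where 587 to 1877 of all genes did. In germline cortex the median of the 87 tested was −0.01, with 39 above and 48 below 0, against −0.001 over all genes. The NuRD partners of Chd3, Chd4 and Chd5 (12 genes) had a median of 0.01 there, and the proteins that bind CHD8 (5 genes) one of −0.003.

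Between compartments, members of the lists lay on both sides with TMM. In germline WT, 28 of 87 genes were higher and 26 lower in the synaptic fraction, beside 65.8% of all genes called in either direction. Of the NuRD partners 5 of 12 were higher and 3 lower, of the SWI/SNF list 14 of 26 were higher and 4 lower, and of the other SNF2-type ATPases 1 of 13 was higher and 10 lower. In conditional WT animals the counts were 27 higher and 30 lower of 87. A few genes are named here after their values were seen. Mta3, a NuRD subunit gene, gave 0.97 (SE 0.107) in germline WT and 0.77 (SE 0.0898) in conditional WT, and Hdac1, a deacetylase gene of the complex, −0.83 (SE 0.13) and −0.96 (SE 0.11). Smarca2, a SWI/SNF ATPase gene, gave 0.72 (SE 0.116) and 0.86 (SE 0.0932), and Hells, an ATPase needed for DNA methylation of repeats, −1.52 (SE 0.206) and −1.53 (SE 0.197).

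Across the 31 germline cortex libraries, after removal of batch, sex and genotype means, 38 of 45 pairs of members correlated positively (median Pearson's r 0.428, range −0.25 to 0.861). These values describe libraries that share their depth and RNA composition, and no test is attached. Chd2, Chd4, Chd6 and Chd8 were alike: r was 0.861 for Chd2 with Chd6, 0.851 for Chd4 with Chd6, 0.828 for Chd6 with Chd8 and 0.757 for Chd4 with Chd8. High values were not confined to them. Chd9 gave 0.819 with Chd6 and 0.785 with Chd2, but 0.646 with Chd8 and 0.617 with Chd4, and Chd7 gave 0.749 with Chd8. Chd3 stood apart, with a median r of −0.04 to the other members and 0.523 to Chd5, and Chd1l likewise (median 0.058). Chd8 and Chd7 correlated with the summed nuclear-retained RNAs (r = 0.794 and 0.824). So did Chd4 (0.586), Chd2 (0.572) and Chd6 (0.518), while Chd3 had r = −0.06. The part of that RNA in the correlations between members was not tested. In the 21 nuclear libraries the 6 pairs of these 4 members had lower r, at 0.163 for Chd2 with Chd4, 0.424 for Chd4 with Chd8, 0.455 for Chd2 with Chd6, 0.532 for Chd4 with Chd6, 0.575 for Chd2 with Chd8 and 0.593 for Chd6 with Chd8.

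**Figure D5:**
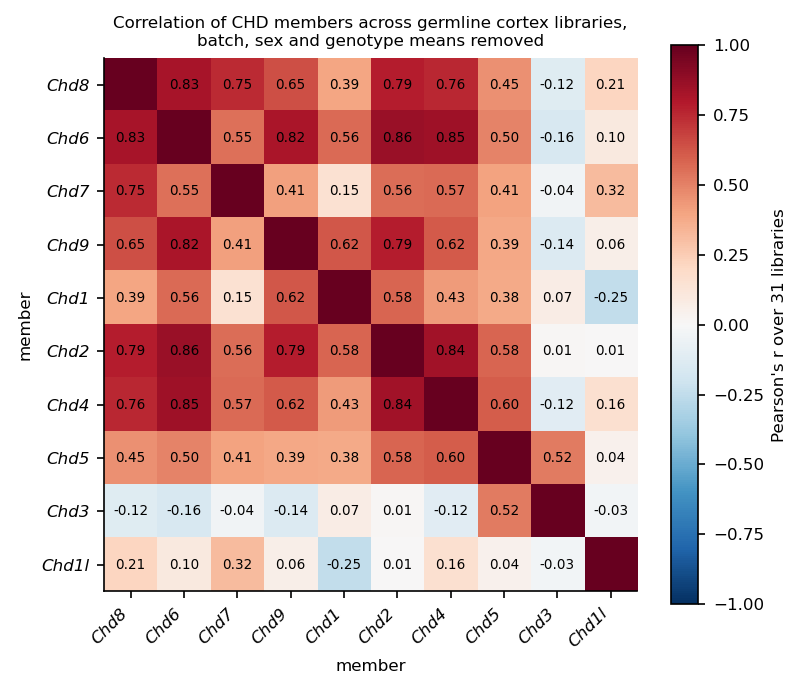
Pearson's r between CHD members over 31 germline cortex libraries (rows and columns are members, colour is r), after removal of batch, sex and genotype means. Chd2, Chd4, Chd6 and Chd8, which are not all side by side, have high values with each other (up to 0.861). Chd9 is also high with Chd6 (0.819), and Chd3 and Chd1l have values near 0 with most members.

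The 250 bases before the RefSeq start of Chd4, Chd6 and Chd8 are shown because these 3 members varied together across cortex libraries. RefSeq (GRCm38.p6) promoters were matched for 6 of the 10 members (Chd1l, Chd4, Chd5, Chd6, Chd8 and Chd9). The windows are chr6:125095731-125095980 (plus strand) for Chd4, chr2:161109087-161109336 (minus strand) for Chd6 and chr14:52257761-52258010 (minus strand) for Chd8. Capitals mark the GC box GGGCGG, which Sp1 binds, and the CCAAT box, each on either strand (CCGCCC and ATTGG), with no overlap between matches.

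Chd4: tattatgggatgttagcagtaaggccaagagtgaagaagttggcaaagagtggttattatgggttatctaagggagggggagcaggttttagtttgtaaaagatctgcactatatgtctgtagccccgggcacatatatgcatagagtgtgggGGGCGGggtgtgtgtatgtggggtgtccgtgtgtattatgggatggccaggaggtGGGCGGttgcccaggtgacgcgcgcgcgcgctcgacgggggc

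Chd6: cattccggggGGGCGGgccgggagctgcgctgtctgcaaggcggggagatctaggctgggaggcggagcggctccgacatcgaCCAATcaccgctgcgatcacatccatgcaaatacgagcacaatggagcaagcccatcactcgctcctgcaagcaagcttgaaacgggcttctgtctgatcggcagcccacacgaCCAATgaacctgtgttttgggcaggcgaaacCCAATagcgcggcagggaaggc

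Chd8: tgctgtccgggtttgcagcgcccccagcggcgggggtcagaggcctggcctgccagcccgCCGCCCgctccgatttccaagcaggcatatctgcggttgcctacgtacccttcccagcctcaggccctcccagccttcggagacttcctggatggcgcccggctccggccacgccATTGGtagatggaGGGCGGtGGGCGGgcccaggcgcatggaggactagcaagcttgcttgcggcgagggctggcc

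Chd8 held 3 GC boxes and 1 CCAAT box, Chd6 1 GC box and 3 CCAAT boxes, and Chd4 2 GC boxes and no CCAAT box. Among 27025 promoters of the same length 32.9% held a GC box, 34.5% a CCAAT box and 13% a TATA box (TATAAA or TTTATA), which none of the 6 members held. Of the 6, 5 held a GC box and 2 a CCAAT box. The windows of Chd8, Chd6 and Chd4 held 20, 19 and 12 CpG dinucleotides, against a median of 6 over all promoters. Of all promoters, 17.7, 19.6 and 33.8% held as many. These matches describe the letters of the window and are no evidence of binding.

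The gene most like a paralogue over the 31 cortex libraries was found among 10584 expressed genes. Chd6 was most like Phip (r = 0.955, and 0.649 in the 21 nuclear libraries), Chd2 like Nsd3 (0.904 and 0.273), Chd7 like Sec14l5 (0.894 and 0.021) and Chd9 like Emsy (0.888 and 0.23). Chd4 was most like Cacna1a (0.878 and −0.18), Chd1 like Golga3 (0.816 and 0.258), Chd1l like Amn1 (0.715 and −0.49) and Chd3 like Rbfox2 (0.703 and −0.07). Chd8 was most like Plekha6 (0.928 and 0.663), Ubr2 (0.923 and 0.697) and Gon4l (0.923 and 0.449). The likeness of 4 of these genes (Sec14l5, Cacna1a, Amn1 and Rbfox2) to their paralogue was thus near 0 or negative in nuclear libraries. Without the 2 libraries farthest from the median of the member, r in cortex ranged from 0.662 (Chd1l) to 0.917 (Chd6).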

How the data were processed

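The deposited values were raw gene counts, in 6 tables covering 123 libraries. Reads had been aligned with STAR 2.5.4b and counted with featureCounts 2.0.0 on GRCm38/mm10, per the submitters' processing notes, and the conditional cortex counts with featureCounts 1.6.0 on Ensembl 95, per the file headers. No strand or pair option stands in that header. Over all libraries 56.3 to 74.7% of counts from 10 to 200 were even numbers, and whether mates of a pair were counted singly was not tested. In all, 4 cytosolic libraries were not analysed here. The 16 libraries present in 2 tables had identical counts and were used once. Within each group all pairs of libraries differed by more than sampling noise, with a chi-square over its degrees of freedom of at least 4.659.

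CPM was the deposited count scaled to the per-million total of its library's gene counts, and RPKM divided CPM by the deposited exon length. Tests used the edgeR 4.0.16 quasi-likelihood F test (R 4.3.3, limma 3.58.1) on all genes passing its filter on low counts, with TMM scaling, robust dispersions and Benjamini-Hochberg adjustment over the whole table at 0.05. The pipeline was tested on simulated data. Germline cortex was fitted with 2 batches, sex and genotype, germline nuclear and synaptic fractions with 3 batch groups, sex and genotype, and the other sets with sex and genotype. The conditional nuclear and synaptic fractions were each 1 fit over all 3 genotypes. Synaptic and nuclear libraries were compared within animal, and the conditional animal with 2 genotype labels was left out of the interaction fit. DESeq2 1.42.0, other scalings and filters, and libraries left out were the alternatives. Omitting the animal without Cre reads, scaling by total counts and the minimum of 5 CPM of Xist for a female library were chosen after seeing the data.

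The members, lists and tests were chosen with earlier results of these data known. The text names the 10 members, listed genes called in a genotype comparison (there were none), and for likeness the closest gene to each paralogue and the 3 closest to Chd8, of which 1 result is not reported here. Outside that rule, 4 listed genes called between compartments (Mta3, Hdac1, Smarca2 and Hells) were named after their values were seen. Correlations used log2 of CPM plus 0.5, among genes with a mean log2 CPM of at least 3. The sample titles number replicates within each group and name no pairs, and the main genotype fits used none. As an alternative only, the numbers were read as pairs where every pair's deviations correlated above 0.1. This held for conditional nuclear HET (4 pairs, 0.314 to 0.423) and conditional synaptic HOM (4 pairs, 0.117 to 0.346). The 2 pairs of conditional nuclear HOM with WT gave −0.055, so such a correlation does not establish pairs. Replicates are labelled as biological replicates. Library totals are given with the results, and replicate spread, not counting error alone, enters the tests.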

Additional observations from a re-analysis of the deposited data

Results flagged for a closer look

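Of 110 combinations of a member and a group of 4 to 10 libraries, 9 held a library set far apart from the rest of its group. Chance flags about 1 in 20 such groups, and the 9 are given as values with no explanation.

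In conditional HOM synaptic libraries, male replicate 1 was the highest for 3 members at once. It had 33.18 CPM of Chd1 (22.06 to 24.19 in the other 4), 61.06 CPM of Chd2 (45.64 to 48.59) and 94.63 CPM of Chd6 (69.01 to 75.14). In germline HET synaptic libraries, female replicate 3 was the lowest for a pair of members, with 41.89 CPM of Chd6 (61.5 to 70.6 in the others) and 34.22 CPM of Chd9 (47.29 to 53.6).

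In germline HET nuclei, male replicate 1 had 178.6 CPM of Chd9, against 109.3 to 141.0 CPM in the other libraries of its group. The Chd9 estimate was 0.25 with that library and 0.185 without it. In germline HET cytosolic libraries, female replicate 2 had 10.36 CPM of Chd7 (13.5 to 15.81 in the others). In germline WT cytosolic libraries, female replicate 3 had 77.61 CPM of Chd8 (86.87 to 90.12). In conditional WT nuclei, female replicate 2 had 274.6 CPM of Chd5 (229.4 to 235.5), and it was the 1 animal of its group with more Chd5 CPM in its nuclear than in its synaptic library.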

How the results depend on the processing

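The count of 0 called paralogues of 9 held in each genotype comparison under the alternatives run and with each library left out, except in the germline cytosolic fraction with the replicate number as a block, where 1 was called (Chd3, −0.35, adjusted p = 0.048 in edgeR). That fit called 132 genes higher and 85 lower, against 0 without the block, and 1 of 3 same-numbered pairs correlated above 0.1, so the numbers were not read as pairs. Where edgeR called 0 of all genes in the main fit, Chd8 was not called either. The count of 0 paralogues had little room to change in those comparisons, so its stability there adds little. In the conditional nuclear HET and synaptic HOM sets, whose numbers were read as pairs, the block changed no call, and Chd8 gave −0.11 and −0.47 with it. Counts over all genes moved more than those of the members. Without the filter on low counts edgeR called 10 genes higher and 11 lower in germline cortex, 26 and 258 in germline nuclei, 88 and 188 in germline synaptic libraries, 58 and 288 in conditional HOM nuclei, 10 and 54 in conditional HET nuclei, 28 and 69 in conditional HOM and 11 and 9 in conditional HET synaptic libraries. With the filter the counts were 32 higher and 24 lower in germline cortex, 1 and 2 in germline nuclei, and 0 in the others. With the replicate block edgeR called 19 higher and 16 lower in germline cortex. In germline nuclei it called 0 with that block, with genotype alone, with 6 batch levels and without the libraries whose sex markers go against their label, and 1 with scaling by total counts. DESeq2 called 55 higher and 42 lower in germline cortex, 5 and 13 in germline nuclei, 15 and 2 in germline synaptic libraries, and 2 and 25 in conditional HOM nuclei. Chd8 in conditional HOM synaptic libraries had an adjusted p of 0.000212 without the filter and 0.936 with it. For synaptic over nuclear libraries of germline WT, 7 of 9 called paralogues became 4 without the libraries whose sex markers go against their label and 5 without the animal block or the filter. With 1 animal left out they ranged from 3 to 8: 3 without the animal of nuclear WT male replicate 5 or female replicate 2, and 4 without that of female replicate 1, 3, 4 or 5 or male replicate 6 or 7. Every member kept its direction in those. Scaling by total counts turned Chd5 in germline HET to −0.096 (adjusted p = 0.512), against 0.51 with TMM. The cause of these shifts was not tested. Of 1000 single-gene values under the other alternatives, 967 kept direction and side of the threshold, and with a library left out 1656 did so, while 29 lost their call, 4 gained one and 1 moved. Precision limits the paralogue results: the 95% intervals of the 9 paralogues spanned 85.28 to 110.8% of WT in germline cortex HET and 53.56 to 130.6% of Cre- in conditional cortex.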
